A study of Homo sapiens with 51 samples.

Results

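Matrix metalloproteases, their tissue inhibitors (TIMPs) and the urokinase system were followed in the transcriptomes of 5 human pancreatic ductal adenocarcinoma (PDA) cell lines. The genes were taken by symbol: MMP1, MMP2, MMP7, MMP14, MMP15, TIMP1, TIMP2, TIMP3, PLAU and PLAUR, which are 10 of the 25421 gene symbols in the count table. The series asked what overexpression of OVOL2, a zinc-finger transcription factor, does to gene expression in such lines. It held 51 libraries in 17 groups of 3. Untreated libraries came from HPAFII, PATU8988S, KP4, PANC1 and PK45H. KP4, PANC1 and PK45H were also transduced with lentivirus for OVOL2 or for the control mCherry, which encodes a red fluorescent protein, at a multiplicity of infection of 2 with 8 µg/ml polybrene. A parallel set of OVOL2 and mCherry wells received a further virus for M2rtTA, which activates promoters that tetracyclines such as doxycycline induce. All transduced wells, the mCherry controls included, were grown from the following day with 2.5 µg/ml of puromycin and 0.6 µg/ml of doxycycline, and RNA was collected after 6 days. The transductions were made in triplicate, and the labels do not say whether the untreated libraries came from separate cultures, so that p-values measure the spread between these libraries.

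Matrix metalloproteases are zinc enzymes that cleave the proteins of the extracellular matrix, and TIMPs bind and inhibit them. Urokinase, the product of PLAU, is a serine protease that turns plasminogen into plasmin at the cell surface, where it is held by its receptor PLAUR. Both systems are studied in pancreatic cancer for their part in invasion, and OVOL2 is known as a repressor of the epithelial-to-mesenchymal transition, a change of state in which such proteases are often raised.

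Library totals ran from 1165399 counts in HPAFII replicate 2 to 7490556 in PANC1. Levels are CPM, that is counts relative to the TMM-scaled library total, with n = 3 libraries per group, and they are compared between libraries for 1 gene and never between genes. Changes are log2 fold changes, SE is their standard error, and the adjusted p is that of edgeR's quasi-likelihood test with Benjamini-Hochberg adjustment over all genes tested, called when under 0.05. OVOL2 itself summed to 56 counts over the 9 mCherry libraries and 54 over the 9 libraries labelled OVOL2 without M2rtTA, and its mean log2 fold change there was -0.09 (adjusted p = 0.926). With M2rtTA the sums were 42 and 178 counts, and OVOL2 rose by 2.15 (adjusted p = 0.000210). In KP4 it rose by 3.08 (adjusted p = 0.0272). PK45H gave a rise of 1.98 (adjusted p = 0.0135), whereas the 1.40 of PANC1 was not called (adjusted p = 0.244). Of the 178 counts, 62 came from KP4 OVOL2 with M2rtTA replicate 2. The mean OVOL2 level of the OVOL2 groups with M2rtTA was 4.92 CPM in KP4, 2.22 CPM in PANC1 and 4.45 CPM in PK45H. Untreated HPAFII and PATU8988S, which received no virus, had 5.13 and 22.9 CPM. Whether transcripts of the viral open reading frame entered this row is not given in the sources used here, so the arm without M2rtTA has no check of its label from OVOL2. The summed level of 6 epithelial markers was 609 to 14283 CPM, against 2.78 to 33.0 CPM for 5 leucocyte, 2.93 to 13.5 CPM for 3 endothelial and 8.38 to 68.8 CPM for 6 fibroblast markers. Of the epithelial markers, CDH1 ran from 0.756 to 115 CPM, with a median of 8.23 CPM. LUM was at 0 in 41 and PDGFRB at 0 in 26 of the 51 libraries, whereas COL1A1, COL1A2, COL3A1 and DCN were at 0 in none, with COL1A1 at 3.39 to 60.5 CPM. HPAFII replicate 2, the shallowest library, stood apart from its 2 mates: PLAU was at 0.15 and MMP1 at 0.277 times their mean, and MMP2 at 3.45 times. What set this library apart was not tested.

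RefSeq promoter windows (GRCh38.p14, the 250 bases before a start site) were at hand for 7 of the 10 genes, in 8 windows. They are shown for the urokinase pair, of which the ligand was lower and the receptor higher in the mean over lines with OVOL2 and M2rtTA, and for MMP7, which separated HPAFII from the other lines. Capitals mark a match to TGANTCA, the AP-1 motif, or to CAGGTG, the E-box bound by ZEB factors. CCGTTA, the core of the OVOL motif, was searched as well, each motif on both strands.
PLAU upstream start, chr10:73910360-73910609, plus strand: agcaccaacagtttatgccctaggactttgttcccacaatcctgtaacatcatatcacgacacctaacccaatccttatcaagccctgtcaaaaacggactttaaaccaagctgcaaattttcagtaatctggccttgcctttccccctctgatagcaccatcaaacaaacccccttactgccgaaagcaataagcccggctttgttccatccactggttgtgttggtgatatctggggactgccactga
PLAU downstream start, chr10:73910882-73911131, plus strand: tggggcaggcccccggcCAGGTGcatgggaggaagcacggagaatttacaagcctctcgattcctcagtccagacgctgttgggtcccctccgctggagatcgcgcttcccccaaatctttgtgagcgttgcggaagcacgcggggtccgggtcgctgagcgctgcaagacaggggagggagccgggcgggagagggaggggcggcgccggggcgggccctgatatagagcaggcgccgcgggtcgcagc
PLAUR, chr19:43670170-43670419, minus strand: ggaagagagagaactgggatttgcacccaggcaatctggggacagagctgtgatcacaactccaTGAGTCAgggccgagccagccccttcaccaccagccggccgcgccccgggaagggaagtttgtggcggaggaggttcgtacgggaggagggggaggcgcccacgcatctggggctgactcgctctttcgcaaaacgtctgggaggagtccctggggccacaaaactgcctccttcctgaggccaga
MMP7, chr11:102530748-102530997, minus strand: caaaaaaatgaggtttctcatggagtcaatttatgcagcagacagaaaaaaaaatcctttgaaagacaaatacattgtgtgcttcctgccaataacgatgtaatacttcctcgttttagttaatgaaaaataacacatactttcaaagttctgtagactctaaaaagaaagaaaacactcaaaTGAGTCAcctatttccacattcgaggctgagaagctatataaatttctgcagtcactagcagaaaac
The PLAU window of the downstream start held an E-box with its first base at -233, and that of the upstream start held none of the 3 motifs. PLAUR held an AP-1 match at -186 and MMP7 at -67. Among the windows that are not shown, MMP15 held E-boxes at -134 and -110, TIMP3 an OVOL core at -153, and MMP14 and TIMP1 none of the 3. Of 35116 promoter windows of the same length, 6.57% held the AP-1 motif, 17.5% the E-box and 2.45% the OVOL core. A match describes letters and is not a binding site. MMP1, MMP2 and TIMP2 had no entry.

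The untreated lines differed widely in which proteases they expressed. HPAFII and PATU8988S together, set against KP4, PANC1 and PK45H, had 6 of the 9 tested genes called, where 34.8% of all genes tested were called. MMP7 was higher by 3.30 (SE 0.20, adjusted p = 1.56e-08), MMP1 by 4.03 (SE 0.41, adjusted p = 2.43e-06), MMP15 by 2.29 (SE 0.24, adjusted p = 3.93e-06) and PLAUR by 0.82 (SE 0.20, adjusted p = 0.00597), and 17.4% of all genes were called higher. MMP2 and PLAU were lower, by -0.87 (SE 0.26, adjusted p = 0.0178) and -1.38 (SE 0.35, adjusted p = 0.00638), and 17.4% of all genes were called lower. Without HPAFII replicate 2 the same genes gave 3.43, 4.22, 2.37 and 0.94, and -1.27 and -1.15, and TIMP1 was called as well (0.36 with and 0.50 without that library, adjusted p = 0.0779 and 0.000329). HPAFII and PATU8988S did not share each difference. Their untreated means were 644 and 12.5 CPM for MMP7, 118 and 1.76 CPM for MMP1, and 40.9 and 9.89 CPM for PLAUR. For PLAU they were 183 and 10.4 CPM. KP4 stood at 10.3, 2.03, 24.0 and 102 CPM for these genes, in that order. In bulk libraries, fewer cells that express a gene and less RNA per cell cannot be told apart.

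MMP7, or matrilysin, a small secreted protease of glandular epithelia (chromosome 11, 102520508 to 102530753), was a gene of HPAFII. Its level there was 921, 374 and 638 CPM, against 14.7, 9.04 and 13.9 CPM in PATU8988S. In the other 3 lines it lay between 6.30 and 13.5 CPM untreated. No library of any other group, treated ones included, came near the HPAFII range, and the next group mean was 14.6 CPM in PK45H with OVOL2 and M2rtTA. HPAFII exceeded PATU8988S by 5.72 (SE 0.37, adjusted p = 5.03e-07; 5.98 without HPAFII replicate 2), and the other 4 lines followed with no step between neighbours past the test.

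MMP1, the interstitial collagenase (chromosome 11, 102789920 to 102798160), had the same order at its top. HPAFII held 166, 42.9 and 144 CPM, and KP4, the next line, 2.19, 1.56 and 2.33 CPM, a step of 5.94 (SE 0.48, adjusted p = 6.54e-07; 6.30 without HPAFII replicate 2). PANC1 was lowest at 0.445, 0.677 and 0 CPM, and no library there had more than 3 counts. The exons of MMP1 overlap WTAPP1 on the opposite strand, and whether counting used the strand is not given in the sources used here.

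MMP15, a membrane-type protease (chromosome 16, 58025566 to 58046901), was instead led by PATU8988S, with 16.9, 19.9 and 20.7 CPM. HPAFII had 5.70, 3.01 and 6.39 CPM, from 18, 4 and 24 counts. It was lower by a log2 fold change of -1.80 (SE 0.35, adjusted p = 0.00227), or -1.64 without HPAFII replicate 2. MMP14, the membrane-type protease that activates pro-MMP2 (chromosome 14, 22836557 to 22849027), was low throughout. Its untreated group means ran from 0.991 CPM in PATU8988S to 3.97 CPM in KP4, and only that pair of the 10 was called.

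MMP2, the gelatinase that cleaves type IV collagen (chromosome 16, 55389700 to 55506691), was led by PANC1, with 79.5, 61.6 and 85.8 CPM, over 25.7, 27.4 and 27.1 CPM in PK45H. That step was 1.55 (SE 0.37, adjusted p = 0.00580). The lower neighbours HPAFII, PATU8988S and KP4 did not differ step by step past the test, and KP4 closed the order at 6.38, 7.11 and 6.36 CPM. Compared directly, HPAFII was called higher than KP4, from libraries of 12.4, 34.6 and 7.73 CPM. The lower MMP2 level of HPAFII with PATU8988S lost its call without HPAFII replicate 1 (adjusted p = 0.0510).

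**Figure D1:**
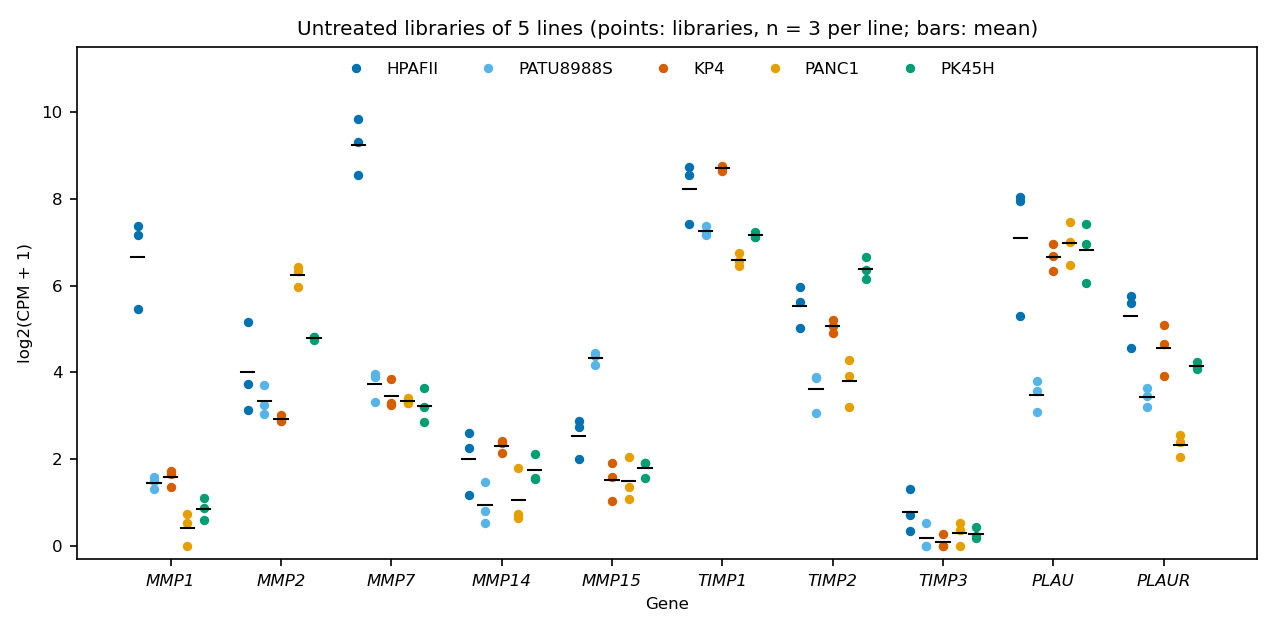
Levels of the 10 genes in the untreated libraries, as log2(CPM + 1) on the vertical axis, with 1 column of 3 points per line and a bar at their mean. MMP7 and MMP1 stand far higher in HPAFII than in the other 4 lines, MMP15 is highest in PATU8988S, MMP2 in PANC1, and PLAU is lowest in PATU8988S.

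Among the inhibitors, TIMP1, a secreted inhibitor of many metalloproteases (chromosome X, 47582313 to 47586789), was highest in KP4 at 402, 415 and 432 CPM and lowest in PANC1 at 107, 93.5 and 86.4 CPM. Neither end differed past the test from its neighbour, HPAFII for KP4 and PK45H for PANC1. The only TIMP1 step past it was HPAFII over PATU8988S, by 1.12 (SE 0.24, adjusted p = 0.00401). TIMP2, which both inhibits MMP2 and, with MMP14, helps to activate it (chromosome 17, 78852977 to 78925387), had another order: PK45H led at 69.8, 100.1 and 81.6 CPM, and PATU8988S closed at 13.7, 13.8 and 7.39 CPM. In TIMP2 the only neighbours that differed past the test were KP4 and PANC1, by 1.19 (SE 0.30, adjusted p = 0.0113), a call lost without PANC1 untreated replicate 3 (0.93, adjusted p = 0.0524). TIMP2 shares exon sequence with CEP295NL on the same strand. TIMP3, the inhibitor that binds to the matrix (chromosome 22, 32801701 to 32863043), had at most 6 counts in any library and 0 in 17 of 51, so it was too low to test.

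PLAU (chromosome 10, 73909177 to 73917497) separated PATU8988S from the rest. Its level there was 7.47, 12.9 and 10.9 CPM, under every untreated library of the other 4 lines, and KP4, the next line up, had 102, 123 and 80.4 CPM. That step was 3.24 (SE 0.56, adjusted p = 0.000439). HPAFII (265, 38.4 and 245 CPM), PANC1, PK45H and KP4 did not differ between neighbours past the test. PLAU exons overlap C10orf55 on the opposite strand. PLAUR, the receptor (chromosome 19, 43646095 to 43670547), fell in another order, from 52.9, 22.6 and 47.2 CPM in HPAFII to 4.90, 4.29 and 3.13 CPM in PANC1. PATU8988S, at 9.89 ± 1.59 CPM (SD, n = 3), lay under HPAFII and under KP4, by a log2 fold change of -1.23 against KP4 (SE 0.31, adjusted p = 0.00687). PANC1 thus had the lowest receptor level of the 5 lines beside a PLAU level that did not differ past the test from that of HPAFII, KP4 or PK45H. The PLAUR step from PATU8988S to PANC1 was 1.24 (adjusted p = 0.0161), a call that 2 of 6 fits without a library lost. That from HPAFII to KP4 was 0.87 (adjusted p = 0.0374), a call that 4 of 6 lost. Over the 10 pairs of lines, PLAUR was called in 8 pairs, MMP2, MMP15, TIMP1 and TIMP2 in 7 each, MMP1 in 5, MMP7 and PLAU in 4 each and MMP14 in 1. Of all genes tested, 20.2% were called between HPAFII and PATU8988S, and 29.9, 28.7 and 25.2% between HPAFII and KP4, PANC1 and PK45H. The shares were 32.5, 29.3 and 28.3% between PATU8988S and those 3 lines, 21.9 and 23.5% between KP4 and PANC1 and PK45H, and 25.6% between PANC1 and PK45H. The number of calls over the 10 pairs was 50, and 53 without HPAFII replicate 2.

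OVOL2 was compared with mCherry within each line, once without and once with M2rtTA. Without M2rtTA, 2 of 7 tested genes were called in PANC1 (5.08% of all genes), 2 of 9 in PK45H (8.39%) and 0 of 8 in KP4 (6.82%), where 1 of the 8 had an unadjusted p under 0.05. In PANC1 and PK45H the called genes were MMP2 and PLAU, both lower, beside 2.96 and 4.81% of all genes called lower.

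With M2rtTA, 4 of 7 were called in PANC1 (13.9% of all genes), 2 of 9 in PK45H (15.9%) and 1 of 8 in KP4 (22.4%). In PANC1, 3 were lower (MMP2, TIMP1 and PLAU) and TIMP2 higher, beside 8.18 and 5.76% of all genes called lower and higher. In PK45H, TIMP2 and PLAUR were higher (7.45% of all genes higher), and in KP4 PLAU was lower (12.5% lower). As a sum, the 6 fibroblast markers were higher under OVOL2 in this arm. Their summed level was 22.4 to 31.6 CPM under mCherry and 44.0 to 54.2 CPM under OVOL2 in KP4, 28.6 to 38.0 against 47.3 to 68.8 CPM in PANC1, and 12.2 to 14.6 against 28.2 to 33.8 CPM in PK45H. Those groups did not overlap in any of the 3 lines, whereas without M2rtTA they overlapped in each. The sum does not show how many of the 6 rose, and COL1A1 alone reached up to 60.5 CPM over the 51 libraries. In PK45H with M2rtTA the summed 5 leucocyte markers did not overlap either, at 4.13 to 6.38 against 7.80 to 13.2 CPM. The summed 6 epithelial markers were higher under OVOL2 with no overlap in KP4 and PK45H, in both arms. KP4 had 767 to 799 against 1067 to 1200 CPM without M2rtTA, and 609 to 617 against 952 to 1054 CPM with it. PK45H had 2534 to 2969 against 4450 to 4785 CPM, and 1873 to 2044 against 4550 to 4675 CPM, in that order. In PANC1 the epithelial sums overlapped in both arms. The part of these markers in the changes was not tested.

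Averaged over the 3 lines, 2 of 9 were called without M2rtTA (18.1% of all genes), MMP2 and PLAU, both lower (8.81% lower). With M2rtTA 5 of 9 were called (32.9%): MMP2, TIMP1 and PLAU lower (17.3% lower), TIMP2 and PLAUR higher (15.7% higher). The median log2 fold change of those 9 was 0.07, beside 0.03 over all genes. Each arm has its own mCherry controls, and the means over lines use the same libraries as the comparisons within lines. Groups of OVOL2 and mCherry libraries did not overlap for 24.3% of all genes in PANC1 without and 30.4% with M2rtTA, 28.5 and 33.8% in PK45H, and 25.2 and 36.3% in KP4.

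PLAU had the largest fall of the 10 genes. In PANC1 without M2rtTA, mCherry libraries had 101, 106 and 143 CPM and libraries labelled OVOL2 24.9, 8.91 and 13.8 CPM. The groups did not overlap, and PLAU fell by 2.89 (SE 0.40, adjusted p = 0.000785). With M2rtTA the levels were 234, 121 and 168 CPM against 22.5, 14.1 and 30.2 CPM. Again no library overlapped, and the fall was 2.97 (SE 0.40, adjusted p = 0.000197). The OVOL2 means of 15.9 ± 8.21 and 22.3 ± 8.10 CPM (SD, n = 3) stood beside 10.4 ± 2.74 CPM in untreated PATU8988S.

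In PK45H the arms parted. Without M2rtTA, PLAU went from 83.3, 27.0 and 112 CPM to 6.25, 18.7 and 19.1 CPM, with no overlap, and fell by 2.39 (SE 0.53, adjusted p = 0.0116). With M2rtTA it was 127, 66.5 and 74.4 CPM under mCherry and 136, 79.8 and 70.1 CPM under OVOL2. Those groups overlapped, with a log2 fold change of 0.15. The change of the OVOL2 effect with M2rtTA was 2.54 (SE 0.71) but was not called (adjusted p = 0.0890). It was called without PK45H mCherry replicate 2, whose PLAU level was lowest of its group (adjusted p = 0.0408), and by DESeq2 (adjusted p = 0.00708).

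KP4 showed a fall in the arm with M2rtTA. Its levels there were 119, 134 and 90.7 CPM under mCherry and 21.8, 35.7 and 79.6 CPM under OVOL2, with no overlap, and PLAU fell by 1.32 (SE 0.41, adjusted p = 0.0321). The call was lost in 4 of the 6 fits that left out a library (replicate 1 or 2 of either group), with log2 fold changes from -2.0 to -0.98 over the 6. It was also lost with robust dispersion (adjusted p = 0.0625), in the fit of 51 libraries (adjusted p = 0.0668) and in that of only the groups compared (adjusted p = 0.0665). Without M2rtTA, the 162, 57.4 and 124 CPM of mCherry and the 139, 110.0 and 99.3 CPM of OVOL2 overlapped, at a log2 fold change of 0.02. Over the 3 lines PLAU fell by 1.74 (SE 0.28, adjusted p = 1.85e-05) without M2rtTA and by 1.38 (SE 0.27, adjusted p = 0.000138) with it. The effect differed between lines in both arms (adjusted p = 0.0195 and 0.00927, where 2.74% and 7.56% of all genes were called). The call without M2rtTA was lost in the fit of only the groups compared (adjusted p = 0.0630). It was also lost when KP4 mCherry replicate 2 was left out (adjusted p = 0.0780).

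**Figure D2:**
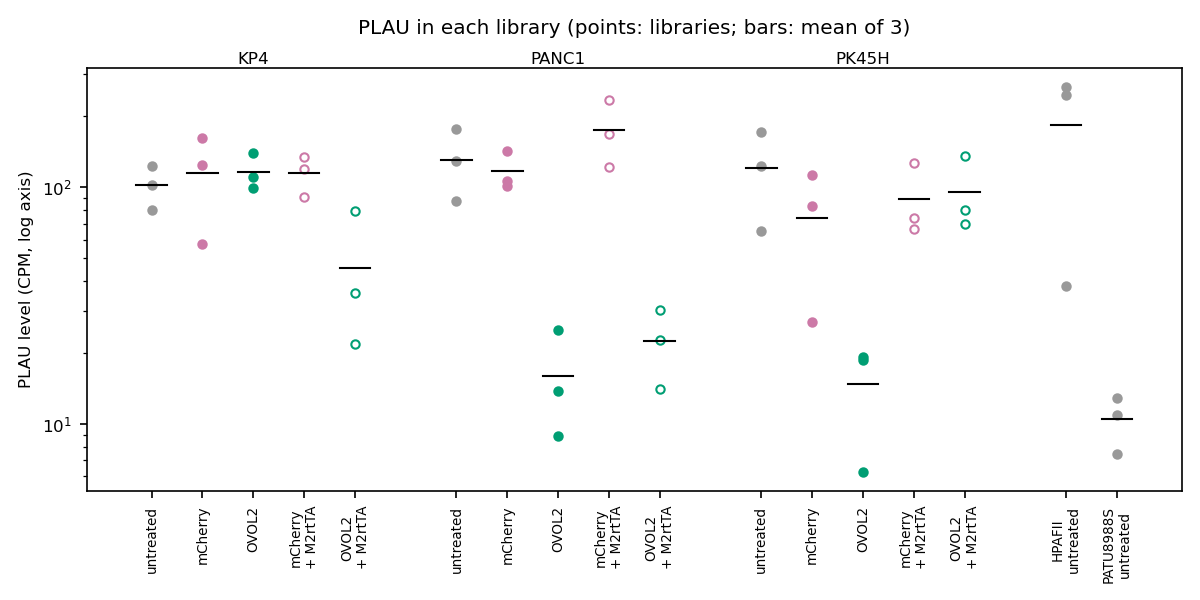
PLAU in every library, in CPM on a log axis, by line and treatment; filled points lack M2rtTA, open points have it, and bars are means of 3. In PANC1 both OVOL2 groups lie below all mCherry libraries, and in PK45H the OVOL2 group without M2rtTA does. In KP4 the OVOL2 group with M2rtTA lies below the mCherry libraries with M2rtTA, but not below all those without it.

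MMP2 fell beside PLAU. In PANC1 without M2rtTA it went from 60.9, 59.7 and 49.0 CPM to 28.4, 27.4 and 32.3 CPM, a fall of 0.95 (SE 0.18, adjusted p = 0.00664) whose call was lost in the fit of 51 libraries (adjusted p = 0.0612). With M2rtTA it went from 76.4, 58.6 and 77.3 CPM to 20.6, 16.6 and 23.7 CPM, a fall of 1.80 (SE 0.18, adjusted p = 1.79e-05). Neither pair of groups overlapped, and the larger size with M2rtTA was not called as a difference between arms (adjusted p = 0.225).

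In PK45H without M2rtTA, MMP2 went from 37.6, 22.1 and 37.5 CPM to 10.3, 17.8 and 11.8 CPM, a fall of 1.35 (SE 0.27, adjusted p = 0.00644). With M2rtTA its groups overlapped, at 20.4, 29.2 and 25.6 CPM against 19.6, 14.5 and 28.0 CPM, and the log2 fold change was -0.22. KP4, which started from the lowest MMP2 level of the 5 lines, gave 0.27 without and 0.29 with M2rtTA, neither called. The effect on MMP2 differed between lines (adjusted p = 0.0271 without and 0.000638 with M2rtTA). Without M2rtTA that call was lost in 8 of the 18 fits that left out a library and in the fit of 51 libraries (adjusted p = 0.117).

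The inhibitors did not move as a set. TIMP1 in PANC1 with M2rtTA went from 129, 136 and 134 CPM to 80.4, 66.2 and 77.6 CPM and fell by 0.83 (SE 0.17, adjusted p = 0.00427). Without M2rtTA it was 115, 106 and 103 CPM against 81.5, 80.7 and 53.7 CPM, no overlap, with -0.59 and adjusted p = 0.0554. That fall was called with robust dispersion, by DESeq2 and in the fit of 51 libraries (lowest adjusted p = 0.0226). In PK45H the log2 fold changes were 0.28 and 0.25 and in KP4 0.25 without M2rtTA, none of them called. The effect on TIMP1 differed between lines in both arms (adjusted p = 0.00486 and 0.000717). Without M2rtTA that call was lost in the fit of 51 libraries (adjusted p = 0.0510) and in that of only the groups compared (adjusted p = 0.0505). Its mean fall over the lines with M2rtTA was small, 0.20 (SE 0.08, adjusted p = 0.0462), and 11 of 18 fits without a library lost the call. It was also lost under RLE scaling (adjusted p = 0.0783), without a filter (0.0679), by DESeq2 (0.0589), in the fit of 51 libraries (0.124) and in that of only the groups compared (0.0846).

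TIMP2 was higher under OVOL2 than under mCherry in the arm with M2rtTA. In PANC1 it went from 18.4, 12.5 and 18.6 CPM to 44.4, 31.0 and 26.6 CPM, up by 1.05 (SE 0.32, adjusted p = 0.0401), a call that 5 of 6 fits without a library lost. In PK45H it went from 59.7, 90.9 and 87.7 CPM to 162, 124 and 127 CPM, up by 0.85 (SE 0.22, adjusted p = 0.0182), a call that 2 of 6 lost. Neither pair of groups overlapped. KP4 gave 0.41 (adjusted p = 0.108), and over the 3 lines TIMP2 rose by 0.77 (SE 0.14, adjusted p = 7.38e-05). Without M2rtTA the mean was 0.38 (adjusted p = 0.0620). The difference between arms was not called in KP4 (adjusted p = 0.914), PANC1 (0.688) or PK45H (0.380).

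**Figure D3:**
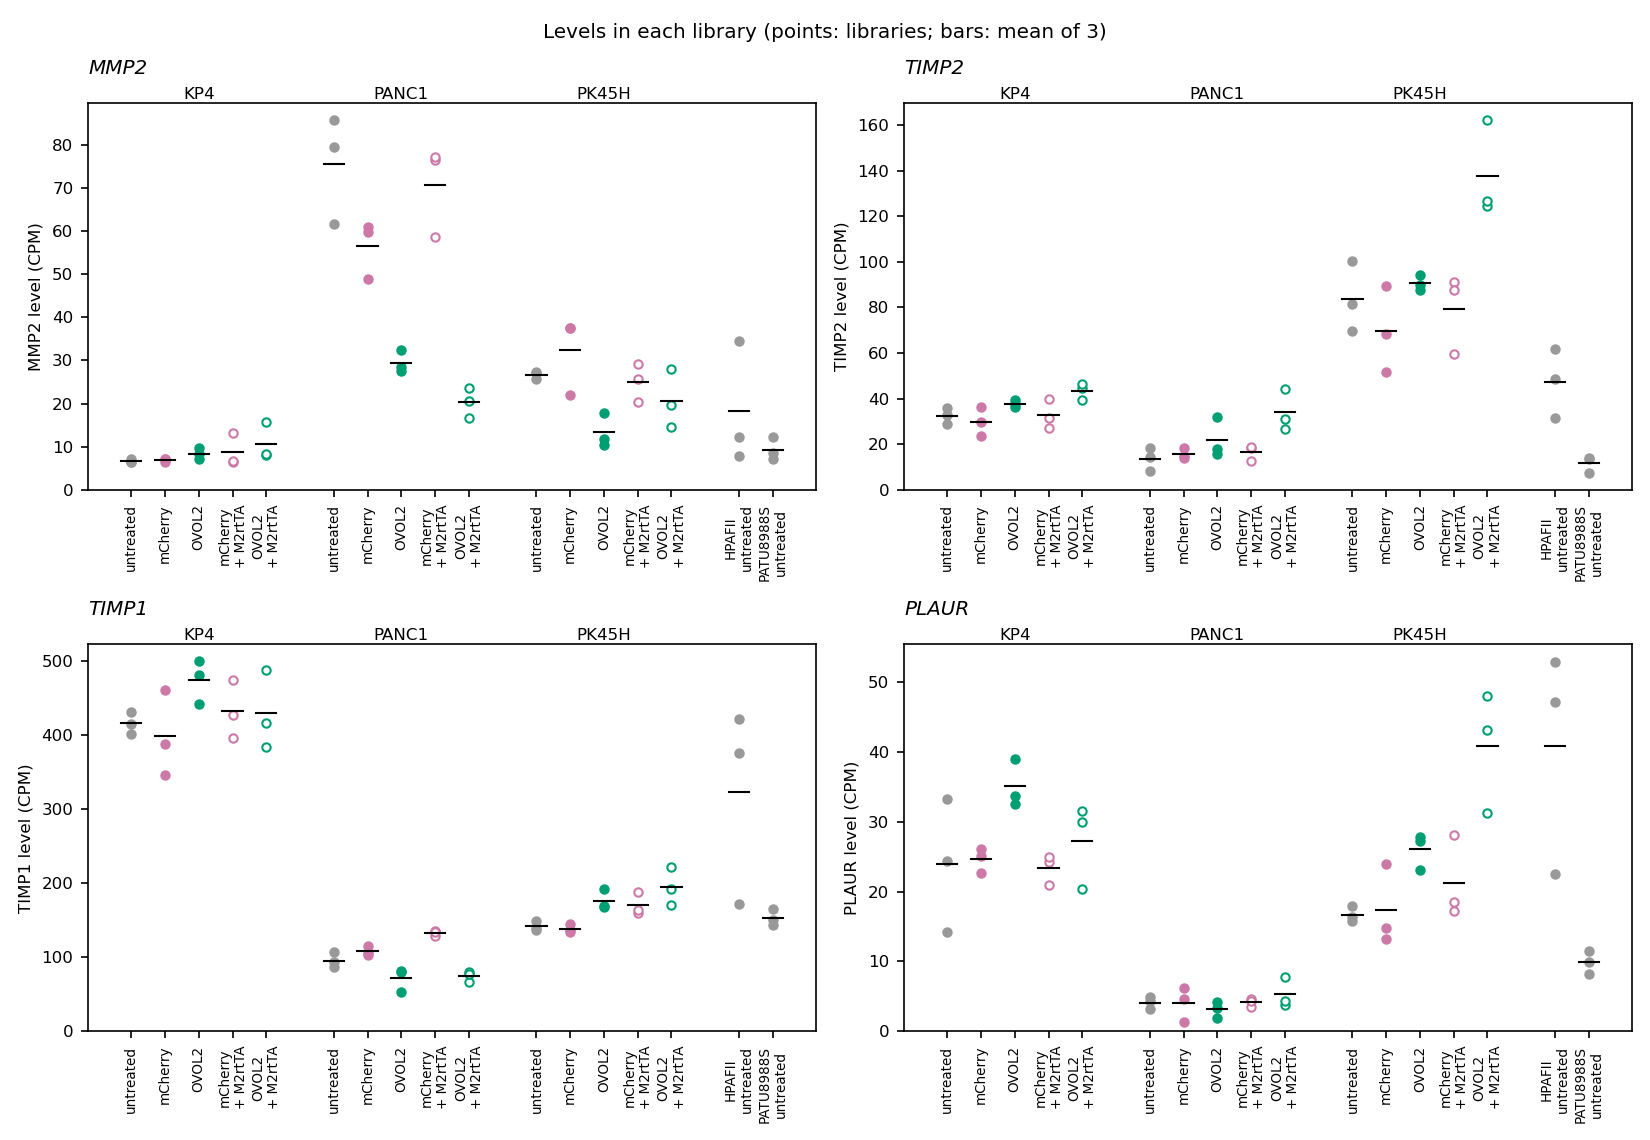
MMP2, TIMP2, TIMP1 and PLAUR in every library, in CPM on linear axes from 0, by line and treatment; filled points lack M2rtTA, open points have it, and bars are means of 3. MMP2 and TIMP1 are lower under OVOL2 in PANC1, whereas TIMP2 is higher under OVOL2 with M2rtTA in PANC1 and PK45H.

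PLAUR, the receptor of urokinase, was called higher in PK45H and in the mean over lines, both with M2rtTA. In PK45H with M2rtTA it went from 17.2, 18.6 and 28.1 CPM to 48.0, 43.2 and 31.2 CPM, with no overlap, and rose by 0.99 (SE 0.24, adjusted p = 0.0129), a call that 3 of 6 fits without a library lost. Over the 3 lines with M2rtTA it rose by 0.53 (SE 0.18, adjusted p = 0.0220), and the call was lost without PANC1 mCherry with M2rtTA replicate 2 and without PANC1 OVOL2 with M2rtTA replicate 2. In PANC1, where PLAU fell in both arms, PLAUR stayed between 1.36 and 7.71 CPM in the transduced libraries and was not called.

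The remaining metalloproteases had no call after OVOL2 where they could be tested. Within lines, MMP1 and MMP14 were too low to test in PANC1, and MMP15 in KP4. MMP7 lay between 6.23 and 19.9 CPM in all treated libraries, all of them under the 374 CPM of the lowest HPAFII library. MMP14 in KP4 without M2rtTA was 4.07, 3.25 and 5.03 CPM under mCherry and 6.48, 8.52 and 8.22 CPM under OVOL2. Those groups did not overlap, at 0.91 (adjusted p = 0.0681), beside 25.2% of all genes without overlap in that comparison. MMP15 in PK45H without M2rtTA gave 0.97 (adjusted p = 0.0960), and MMP1 in KP4 with M2rtTA -1.04 (adjusted p = 0.0743). In KP4 without M2rtTA, MMP15 was 0.814, 2.43 and 0.914 CPM under mCherry and 0.772, 0 and 0 CPM under OVOL2. Those groups did not overlap, and the OVOL2 libraries summed to 5 counts. The fit of 51 libraries called MMP15 there.

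**Figure D4:**
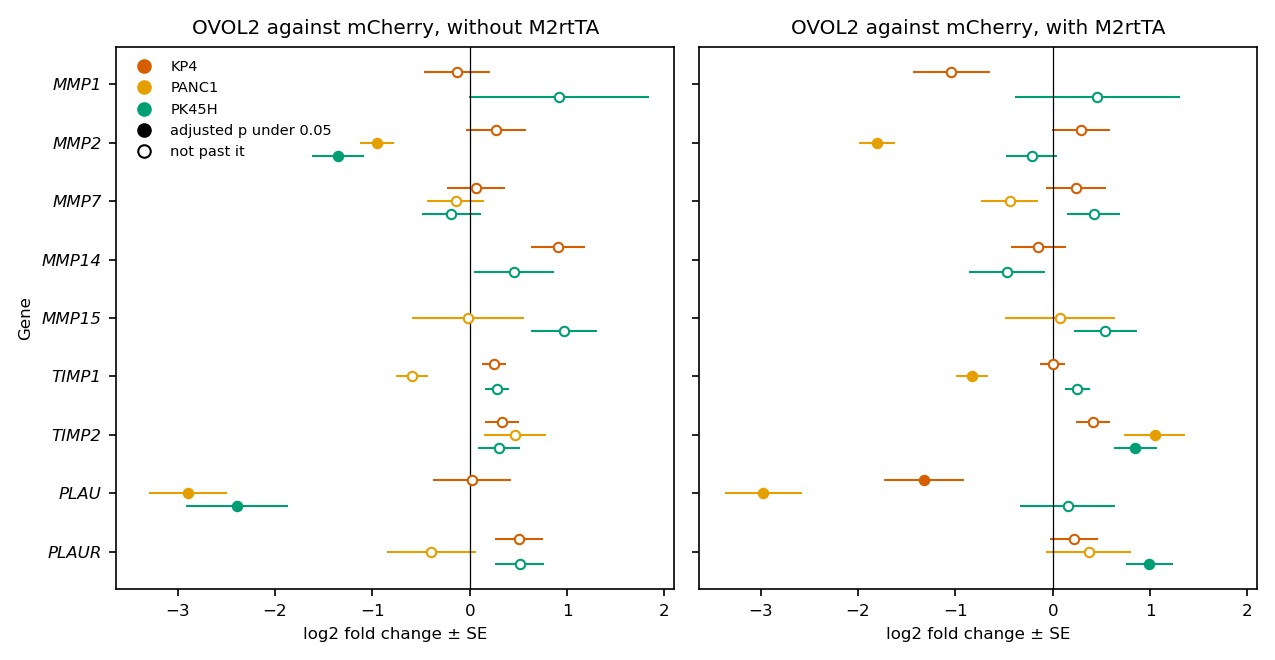
Log2 fold changes of OVOL2 against mCherry with their SE, for each gene that could be tested, without M2rtTA on the left and with it on the right; filled points are past the adjusted p threshold of 0.05. The filled points of PLAU, MMP2 and TIMP1 lie to the left of 0, and the filled points of TIMP2 and PLAUR lie to the right of 0 with M2rtTA.

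Transduction with mCherry, which included puromycin and doxycycline, was compared with no treatment. Between mCherry and untreated libraries, 0 genes of the 10 were called in KP4, PANC1 and PK45H (0, 0.598 and 0.00736% of all genes), with an unadjusted p under 0.05 for 1, 1 and 0 of them. Between mCherry with and without M2rtTA, 0 were called in each line (0, 0 and 0.0294%), and 0 had an unadjusted p under 0.05. The change of the OVOL2 effect with M2rtTA was called for 0 of the 10 in KP4, PANC1 and PK45H (1.43, 0.136 and 1.6%), with an unadjusted p under 0.05 for 2, 1 and 2. DESeq2 called PLAU in PK45H.

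Other genes of pericellular proteolysis were read from a list of 46. With M2rtTA, over the 3 lines, 13 of the 37 tested were called, 5 higher and 8 lower, at a median of 0.18 beside the 0.03 of all genes. Of all genes, 32.9% were called, so this share is near the background. Without M2rtTA, 8 of 37 were called, 2 higher and 6 lower, also near the 18.1% of all genes. CD44, the hyaluronan receptor to which MMP7 and MMP9 dock, fell in each line with M2rtTA, by 0.69 (KP4), 1.28 (PANC1) and 0.54 (PK45H) (adjusted p = 0.00223, 2.11e-05 and 0.00399). RECK, a membrane-anchored inhibitor of metalloproteases, fell in PANC1 by 2.09 without and 2.47 with M2rtTA (adjusted p = 0.0328 and 0.00789) and was too low to test in KP4 and PK45H.

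For each gene that reached 10 CPM in some group, the 2 genes of most similar pattern over the 17 group means were listed from 7947 candidates. Pearson's r was 0.951 for MMP7 with HHLA1 and 0.902 for MMP1 with CRYZL1, each the second of its pair. HPAFII weighs heavily in both values, as its means of 644 and 118 CPM stood over at most 14.6 and 3.75 CPM in any other group. MMP2 was most like MYADM and UACA (0.942 and 0.939), MMP15 like ATP5F1E and MGST3 (0.908 and 0.903), TIMP1 like DMAC1 and TGFBR2 (0.951 and 0.930), TIMP2 like PVR and JARID2 (0.929 and 0.925) and PLAUR like OCIAD2 and TTLL12 (0.937 and 0.927). PLAU had the loosest neighbours, CRABP2 at 0.813 and AIDA at 0.770. These are descriptions over groups that share lines and libraries.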

How the data were processed

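Expression was measured by PLATE-seq, a 3′-end method in which wells are barcoded and pooled, from 100 ng of total RNA, per the labels. The authors deposited raw counts per gene symbol, as whole numbers without normalisation, for 51 libraries in 17 groups of 3, and 0 columns stayed unmatched. The submitters' processing notes name kallisto 0.44.0 and GRCh38; their roles, the annotation and the handling of molecular identifiers and strand are not given in the sources used here. Counts of 1 group differed by more than sampling noise in all 51 pairs of libraries. Groups came from titles and treatment labels.

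Counts were filtered by filterByExpr, scaled by TMM and tested with edgeR 4.0.16 (quasi-likelihood, two-sided, Benjamini-Hochberg over all genes tested, threshold 0.05) in R 4.3.3. Each transduced line's 15 libraries shared a fit, as did the 45 libraries of the 3 lines, which gave means and a 2-degree-of-freedom test between lines, and the 15 untreated libraries. The procedure was tested on simulated data. Standard errors came from the test statistic. Alternatives were RLE scaling, no filter, robust dispersion, DESeq2 1.42.0, a replicate block, a fit of all 51 libraries, a fit of only the groups compared, and leaving out each library. Named genes were the 10, RECK, a further gene of the list of 46, and genes of the list of 46 called alike in all 3 lines and their mean with M2rtTA, and for likeness the 2 genes closest to each of the 10; 2 genes so named are not reported here. The members and lists were chosen with earlier results of these data known. Positions are those of the GENCODE annotation of GRCh38.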

Additional observations from a re-analysis of the deposited data

Results flagged for a closer look

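The effect of OVOL2 differed between KP4, PANC1 and PK45H for 3 of the 9 tested genes in each arm, by a test of the 3 line effects in one edgeR fit that called 2.74% of all genes without and 7.56% with M2rtTA. Without M2rtTA the adjusted p was 0.0195 for PLAU, whose log2 fold changes were 0.02, -2.89 and -2.39 in KP4, PANC1 and PK45H. For MMP2 it was 0.0271, with 0.27, -0.95 and -1.35, and for TIMP1 0.00486, with 0.25, -0.59 and 0.28. The PLAU call was lost in the fit of only the groups compared (adjusted p = 0.0630). For MMP2 the call was lost in the fit of 51 libraries (adjusted p = 0.117) and in 8 of 18 fits that left out a library. The TIMP1 call was lost in the fit of 51 libraries (adjusted p = 0.0510) and in that of only the groups compared (adjusted p = 0.0505).

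With M2rtTA the adjusted p was 0.00927 for PLAU, with -1.32, -2.97 and 0.15 in the same order of lines. MMP2 gave 0.000638, with 0.29, -1.80 and -0.22. TIMP1 gave 0.000717, with -0.83 in PANC1 and 0.25 in PK45H. Leaving out KP4 mCherry replicate 2 ended the PLAU call without M2rtTA (adjusted p = 0.0780).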

How the results depend on the processing

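Of 489 gene-level values under other settings, 457 kept their direction and side of the threshold, 20 lost and 8 gained a call, and 4 changed sign. Those 4 were TIMP1 in KP4 with M2rtTA, near 0 throughout: 0.0124 under RLE, 0.00343 without a filter, 0.0118 under DESeq2 and 0.00277 in the fit of only the groups compared. The PLAU call in KP4 with M2rtTA was lost with robust dispersion, in the fit of 51 libraries and in the fit of only the groups compared, which left 0 genes called. The fit of 51 libraries called 1 gene (MMP15) in KP4 without M2rtTA. Differences between lines without M2rtTA left 1 gene called in the fit of 51 libraries and 1 in that of only the groups compared. DESeq2 called 1 gene, PLAU, for the change with M2rtTA in PK45H. The cause of these was not tested.

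Leaving out a library in turn took the number of genes called to 0 to 1 in KP4 in each arm, 3 to 4 in PANC1 and 0 to 2 in PK45H with M2rtTA. For the mean it was 2 to 3 without and 3 to 5 with M2rtTA, for line differences without M2rtTA 1 to 4, for the M2rtTA change in PK45H 0 to 1, for the untreated lines 6 to 7 and for their 10 pairs 46 to 53. Signs changed for PLAU in KP4 without (-0.29 to 0.32) and in PK45H with M2rtTA (-0.19 to 0.46), MMP2 in KP4 with M2rtTA (-0.11 to 0.72), TIMP1 in KP4 with M2rtTA (-0.12 to 0.075), TIMP1 in the mean without M2rtTA (-0.048 to 0.044) and PLAUR in PANC1 without M2rtTA (-0.75 to 0.052), none of which was called.

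Replicate numbers did not pair the libraries: same-numbered deviations correlated at -0.262 to 0.249, with 2 of 18 over 0.1 and 3 of 18 libraries best matched to their own number. The replicate block left 3 of the 4 genes called in PANC1 with M2rtTA, without TIMP2 (adjusted p = 0.0651). TIMP3, MMP14 and, outside HPAFII, MMP1 had few counts, which limits the precision of their values.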

Other observations

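Of the list of 46 genes of pericellular proteolysis, 22 of 34 tested were called between untreated HPAFII with PATU8988S and the other 3 lines, 14 higher and 8 lower, against 34.8% of all genes. CD44 was lower in that comparison by a log2 fold change of -1.31 (SE 0.12, adjusted p = 8.17e-07). Against KP4 alone neither line was called, at -0.44 for HPAFII (adjusted p = 0.0742) and 0.29 for PATU8988S (adjusted p = 0.237). RECK had a mean of 6.36 CPM in untreated PANC1 and of 0.234 to 0.890 CPM in the other 4 lines, where HPAFII and PATU8988S had at most 3 counts per library. Of 15 further metalloproteases in the table, 11 stayed under 5 CPM in every group mean, and MMP17, MMP19, MMP24 and MMP28 did not. MMP28 peaked at 22.5 CPM in PATU8988S and MMP24 at 18.6 CPM in PK45H with OVOL2 and M2rtTA, genes named after their values were seen.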
